A study of Mus musculus with 4 samples.

Results

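Notch2, Slc39a1, Kmt2d, Kdm6b, Actb, Abhd2, Rpgrip1, Ncoa3, Zscan26 and Rbm15 are 10 of the 13314 genes in a single-cell RNA count table of mouse CD4 T cells. They were chosen by their ratio of expression in clusters 4 and 7 of the authors' 10 phenograph clusters to the other clusters, so their high levels in those clusters are a description and not a finding. The clusters carry numbers only in the deposited tables, and no cell type name is given to them here.

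The study colonized germ-free male mice with fecal microbiota from specific-pathogen-free mice, or kept them germ-free, and sorted CD4 T cells from the mesenteric lymph nodes. The 4 libraries came from colonized Foxp3CNS1- mice, germ-free Foxp3CNS1- mice, colonized Foxp3GFP mice and germ-free Foxp3GFP mice, and colonized mice were taken 9 days after colonization. Each library pooled 3 mice, held 50% cells with GFP and 50% cells without it, and aimed at about 5000 cells. Foxp3CNS1- mice lack CNS1, an enhancer of the Foxp3 gene that is known for its part in making regulatory T cells outside the thymus, and Foxp3GFP mice carry a GFP reporter at Foxp3. All mice were male and all began germ-free, and the sort fixed the share of GFP-positive cells, so that share is no readout.

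Notch2 is a receptor that is cut after ligand binding and then acts in the nucleus with RBPJ, and in lymphoid tissue it is best known for marginal zone B cells and dendritic cells. Kmt2d and Kdm6b are chromatin enzymes: KMT2D methylates histone H3 at enhancers and KDM6B removes the repressive methyl mark that polycomb complexes lay down. Ncoa3 encodes a coactivator of nuclear receptors, Rbm15 a protein that guides the RNA methylation complex, Zscan26 a zinc finger protein, Slc39a1 a zinc importer of the plasma membrane, Abhd2 a lipid hydrolase, Rpgrip1 a protein of the photoreceptor cilium, and Actb the cytoplasmic beta-actin.

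A feature that the choice of genes did not use was a long run of thymines in the annotated transcript. In GENCODE M21 transcripts (build GRCm38, the same assembly as mm10) 8 of the 10 genes had a run of 22 or more, and in each of the 8 it lay in the 3′ UTR, between 386 and 919 bases before the transcript's end. The runs are shown because the values below divide genes along them. Each window is 30 bases, written 5′ to 3′ on the strand of the gene, with the thymine run in capitals.
Notch2, chr3:98149775-98149804, plus strand: gggcTTTTTTTTTTTTTTTTTTTTTTattc
Kmt2d, chr15:98832518-98832547, minus strand: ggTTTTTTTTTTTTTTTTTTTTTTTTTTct
Ncoa3, chr2:166072519-166072548, plus strand: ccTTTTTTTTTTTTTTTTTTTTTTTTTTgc
Actb, chr5:142903649-142903678, minus strand: TTTTTTTTTTTTTTTTTTTTTTTTTTTTTa
The Notch2 run had 22 bases, those of Kmt2d and Ncoa3 26, those of Kdm6b, Actb, Abhd2 and Zscan26 29, and that of Slc39a1 32. Rpgrip1 and Rbm15 had no thymine run above 12. Their longest runs of another base were 28 adenines in Rpgrip1 and 18 cytosines in Rbm15. The locus of Rpgrip1 (chr14:52110704-52163546, plus strand) overlaps that of Supt16 (chr14:52160414-52197416, minus strand), whose longest run has 28 thymines, and the use of strand in counting was not given in the sources used here, so the Rpgrip1 values are uncertain.

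The 4 libraries held 5406 cells (colonized Foxp3CNS1-), 3533 cells (germ-free Foxp3CNS1-), 4030 cells (colonized Foxp3GFP) and 3979 cells (germ-free Foxp3GFP) that the authors kept, 16948 in all, with median unique molecule counts (UMIs) per cell of 2764, 2286, 2832 and 2399 in that order. Cluster 4 had 1844 cells, cluster 7 had 721 and the other 8 clusters had 14383. Of the 10 CD4 T cell markers, all were detected in clusters 4 and 7 and none was past 1.5-fold against the other clusters. Their summed level over the libraries ran from 8510 to 10195 counts per 1000000 UMIs (CPM) in cluster 4, from 9321 to 10381 CPM in cluster 7 and from 9301 to 10178 CPM in the other clusters. The 1 erythroid and the 1 platelet marker in the table were at 0 in clusters 4 and 7. The libraries shared 157 cell barcodes, each in 2 libraries. The germ-free Foxp3GFP library stood apart in a way given below, beside the barcode results.

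In clusters 4 and 7 all 10 genes were high in each library. A gene was called past the fold when its ratio of CPM was at least 1.5, or at most its inverse, with at least 50 UMIs over both sides. Against the clusters outside 4 and 7, cluster 4 had 10 of 10 genes up, beside 3.41% of 10986 genes tested, with a median ratio of 3.93 (range 3.09 to 6.07). Cluster 7 had 10 of 10 up, beside 7.77% of 10914 genes, with a median of 6.19 (range 3.48 to 8.60). These counts follow from how the genes were chosen.

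Notch2, the receptor, was at 37.9, 69.9, 36.96 and 52.3 CPM in cluster 4 of the colonized Foxp3CNS1-, germ-free Foxp3CNS1-, colonized Foxp3GFP and germ-free Foxp3GFP libraries. In cluster 7 it was at 41.6, 88.7, 58.0 and 70.8 CPM in the same order, against 6.12, 11.7, 7.53 and 8.39 CPM in the other clusters. No library of clusters 4 or 7 overlapped a library of the other clusters, and both colonized libraries were below both germ-free ones in cluster 4 and in cluster 7. Over all libraries Notch2 had 48.1 CPM in cluster 4 (95% Poisson interval 42.3 to 54.6) and 65.1 CPM in cluster 7 (54.7 to 76.8), against 7.93 CPM in the other clusters (7.12 to 8.80). All intervals here cover counting error only.

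The chromatin genes followed. Kmt2d was at 56.9, 61.7, 81.0 and 69.6 CPM in cluster 4 and at 76.3, 124, 94.5 and 108 CPM in cluster 7, in the same order of libraries, against 15.1, 17.52, 17.50 and 17.9 CPM in the other clusters. Kdm6b was at 62.0, 73.0, 73.2 and 93.4 CPM in cluster 4 and at 113, 164, 77.9 and 142 CPM in cluster 7, against 20.8, 28.7, 24.2 and 28.7 CPM in the other clusters. Kdm6b also differed among the other clusters, at 42.9 CPM in cluster 3, 32.4 CPM in cluster 6 and 31.4 CPM in cluster 8, against 14.7 to 24.01 CPM in clusters 0, 1, 2 and 5. Ncoa3, with the lowest ratio of the 10 in cluster 7 but not in cluster 4, was at 127 CPM both in cluster 4 and in cluster 7, against 36.6 CPM in the other clusters.

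Actb set clusters 4 and 7 apart from most cells of the other clusters, with some overlap. It was at 11798, 12516, 12648 and 12344 CPM in cluster 4 and at 26480, 26164, 28910 and 26453 CPM in cluster 7, against 3232, 3097, 3149 and 3044 CPM in the other clusters. The lowest cell of cluster 7 had 13491 CPM and the lowest of cluster 4 had 5139 CPM, while the 95th percentile of cells in the other clusters was 6360 CPM. The highest cell of the other clusters had 19564 CPM and the highest of cluster 4 had 25729 CPM, so the ranges overlapped. Slc39a1, the zinc importer, was at 53.4 to 66.8 CPM over the libraries in cluster 4 and at 80.0 to 104 CPM in cluster 7, against 9.67 to 12.4 CPM in the other clusters. Abhd2, Rpgrip1, Zscan26 and Rbm15 had median library levels of 53.1, 99.8, 41.5 and 33.0 CPM in cluster 4 and of 97.9, 181, 53.1 and 55.1 CPM in cluster 7. In the other clusters their median library levels were 13.3, 28.2, 10.9 and 11.01 CPM. Cluster 9, with 84 cells, is too thin to place: Notch2 rested there on 1 UMI, and several genes were at 0 in at least 1 library.

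**Figure D1:**
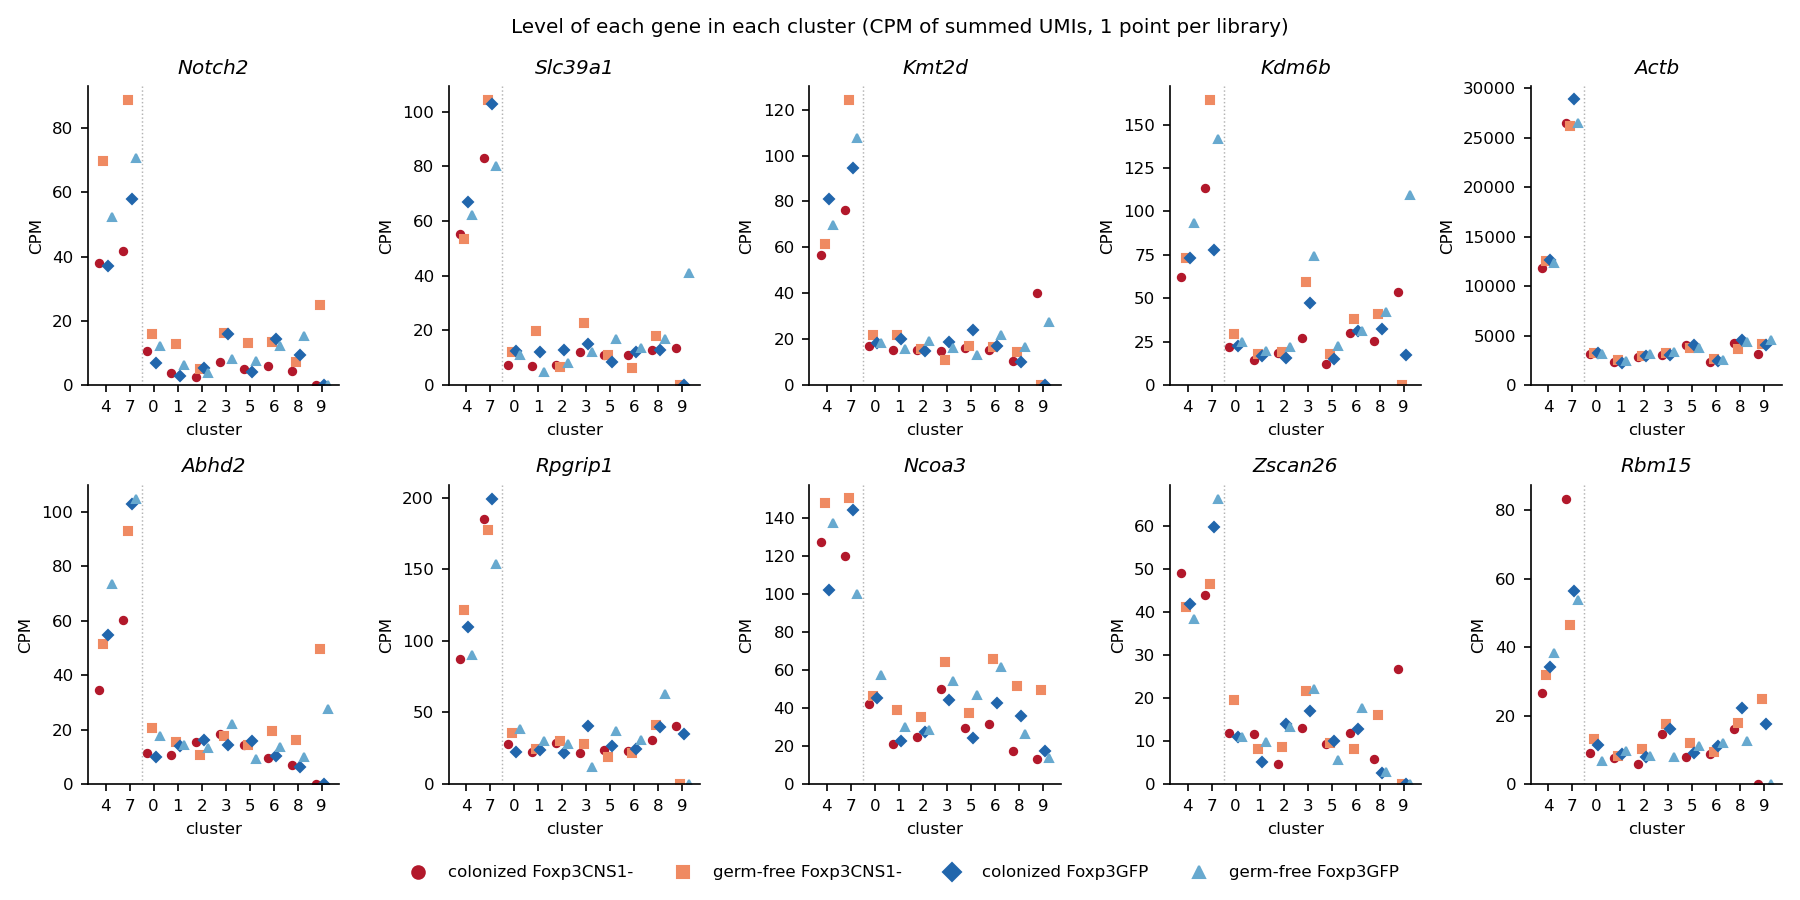
Level of each gene in CPM of summed UMIs (y axis, linear) by cluster (x axis), 1 point per library, with clusters 4 and 7 left of the dotted line. In clusters 0 to 8 outside 4 and 7 every library of Actb lies between 2257 and 4598 CPM, against 11798 CPM or more in clusters 4 and 7; the scattered points of cluster 9 rest on 84 cells.

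At the edge of the choice, Kdm6b was the last of these genes in cluster 4 among genes seen in at least 10% of its cells, with a ratio of 3.11, and Marf1 the next below it, with 2.71. Lrrc8a, not among the 10, had a ratio of 3.49 there. Rbm15 had a ratio of 3.09 in cluster 4 but was seen in only 8.73% of its cells. In cluster 7 Kdm6b had 4.98 and Acot2, the next below, 4.53, while Ncoa3, with 3.48, stood at rank 21. Above Kdm6b there stood 2 genes not among the 10, D17H6S53E at rank 4 with 7.82 and Gm17066 at rank 6 with 6.45. Further leading genes were Ppm1h, Ptpn22 and Ppp1r16b in cluster 4 (ratios of 2.48, 2.47 and 2.44) and Insig1, Lrrc8a and Slc24a5 in cluster 7 (4.42, 4.12 and 4.095).

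Taken over all their cells, clusters 4 and 7 were ordinary in depth and in mitochondrial share. The median UMI count per cell was 2442 in cluster 4 and 2334 in cluster 7, against 2609 in the other clusters, and the median share of UMIs in mitochondrial genes was 2.24% and 2.22%, against 2.23%. When cells were cut into quartiles of UMIs within each library, Actb in cluster 4 was at 13128 CPM in the lowest quartile and 12311 CPM in the highest, and in cluster 7 at 26759 and 28207 CPM. The other 9 genes summed to 734 CPM in the lowest UMI quartile of cluster 4 and 546 CPM in the highest, to 1034 and 807 CPM in cluster 7, and to 199 and 149 CPM in the other clusters. Their summed level per UMI was thus lower in the highest than in the lowest quartile in all 3 sets of cells. Not every gene followed the sum. In cluster 7 Slc39a1 went from 63.0 to 97.4 CPM, Rpgrip1 from 172 to 201 CPM and Rbm15 from 60.2 to 62.6 CPM, while the rest of the 9 fell. Slc39a1 also went from 10.9 to 11.6 CPM in the other clusters. By quartile of mitochondrial share, from lowest to highest, the 9 genes summed to 652, 614, 581.8 and 600.4 CPM in cluster 4, to 973, 812, 896 and 867 CPM in cluster 7 and to 165, 155, 154 and 167 CPM in the other clusters. No quartile of clusters 4 or 7 came near any quartile of the other clusters.

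Regulatory and naive T cell genes did not set clusters 4 and 7 apart by the fold. Of 6 regulatory T cell markers and 6 naive markers, none was past 1.5-fold in clusters 4 and 7 together against the other clusters. Foxp3, the factor that defines regulatory T cells, was at 73.7 CPM in clusters 4 and 7, against 90.4 CPM in the other clusters. In cells thinned to 1000 UMIs, Foxp3 was seen in 6.81% of cluster 4 (5.70% to 8.07%, exact binomial) and 5.71% of cluster 7 (4.11% to 7.69%). That is between clusters 0, 3 and 6 (14.8%) and clusters 1 and 2 (2.23%). The same shares without thinning were 14.8%, 14.01%, 30.2% and 5.54%, in the same order. Of markers of other cells with at least 50 UMIs, 2 of 3 plasma cell genes, 3 of 4 myeloid genes, 1 of 4 natural killer cell genes, 0 of 3 B cell genes and 0 of 2 CD8 T cell genes were past the fold downward in clusters 4 and 7, beside 4.24% of all genes. Among them were Jchain, at 9.18 against 54.7 CPM, Lyz2, at 5.29 against 18.7 CPM, and Gzma, at 14.3 against 36.8 CPM. Few cells held these genes. Jchain was seen in 0.22% of cluster 4 cells, 0.55% of cluster 7 cells and 0.55% of cells in the other clusters. In the same order Lyz2 was seen in 0.54%, 1.11% and 0.57%, and Gzma in 1.19%, 1.11% and 1.68%. Summed over each list the ranges of the libraries overlapped: plasma cell genes had 37.1 to 89.5 CPM in cluster 4 and 36.9 to 80.9 CPM in cluster 7, against 42.2 to 169 CPM in the other clusters, and myeloid genes 98.1 to 123 CPM and 131 to 173 CPM, against 110 to 175 CPM. The part of these cells in the results was not tested.

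The genes were seen together within a cell somewhat more often than the product of their shares gives. After thinning to 1000 UMIs, 46.4% of cluster 4 cells and 59.1% of cluster 7 cells held at least 1 of the 9 genes other than Actb, against 14.9% of cells in the other clusters. No cell type that should lack these genes was sorted, so the share given by free RNA could not be set beside these. Over the 36 pairs of genes, cells with both numbered 376 in cluster 4, which is 1.18 times the product of the shares (interval 1.06 to 1.30). In cluster 7 there were 278, or 1.13 times (0.999 to 1.27), and in the other clusters 254, or 1.51 times (1.33 to 1.70). These intervals take the counts as independent, but 1 cell can count in several pairs, so they may be too narrow. Over all cells pooled the factor was 2.04. At barcodes with 5 or 6 G or C bases it was 1.22, and at 8 or more it was 1.92. That gap moved with the depth of thinning. Thinned to 500 UMIs the 2 factors were 1.44 and 1.48, and thinned to 1500 UMIs they were 1.26 and 1.44. At 8 or more outside clusters 4 and 7 the factor was 1.48. It was 1.06 there after thinning to 500 UMIs and 1.19 after thinning to 1500 UMIs. A cell of cluster 7 held at most 6 of the 9 genes.

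The cell barcode, the 16-base tag that marks all molecules of a droplet, moved with these genes. The chemistry behind the tags is known here from the labels alone. Barcodes held 5 to 11 guanine or cytosine (G or C) bases. Of cells whose barcode had 5 such bases, 90.5% were in clusters 4 and 7 (361 of 399 cells, exact binomial interval 87.2% to 93.2%). The share was 62.1% at 6 bases, 18.7% at 7 and 3.65% at 8, and it lay between 3.23% and 4.26% from 9 to 11 bases. Median Actb per cell was 19170 CPM at 5 bases, 10548 CPM at 6, 4132 CPM at 7 and 2724 CPM at 8, and lay between 2201 and 2421 CPM from 9 to 11. Median UMIs per cell stayed between 2553 and 2623 at every count of G or C. Over the 16948 cells the Spearman correlation of Actb CPM with the number of G or C bases was -0.49, and that of UMIs was -0.01.

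The same order was present in each library. In cells with 5 or 6 G or C bases, 51.0% of colonized Foxp3CNS1- cells were in clusters 4 and 7, as were 68.7% of germ-free Foxp3CNS1- cells, 76.1% of colonized Foxp3GFP cells and 79.1% of germ-free Foxp3GFP cells. In cells with 8 or more, the shares were 0.921%, 2.15%, 1.73% and 10.2% in that order. The colonized Foxp3CNS1- library was lowest at both ends. The germ-free Foxp3GFP library stood apart at the high end. With 8 or more G or C, 264 of its cells were in clusters 4 and 7, against 33, 49 and 46 in the others. Their median was 1510 UMIs, against 2481 UMIs in its cells of that barcode class outside those clusters. The other libraries, in order, also had lower medians in clusters 4 and 7: 2272 against 2774, 1990 against 2280 and 1971 against 2826 UMIs. Over all libraries, cells of this class had a median of 1635 UMIs in clusters 4 and 7, against 2603 UMIs outside. The share of barcodes with 5 or 6 G or C was itself nearly equal in the libraries, between 13.0% and 13.4%.

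**Figure D2:**
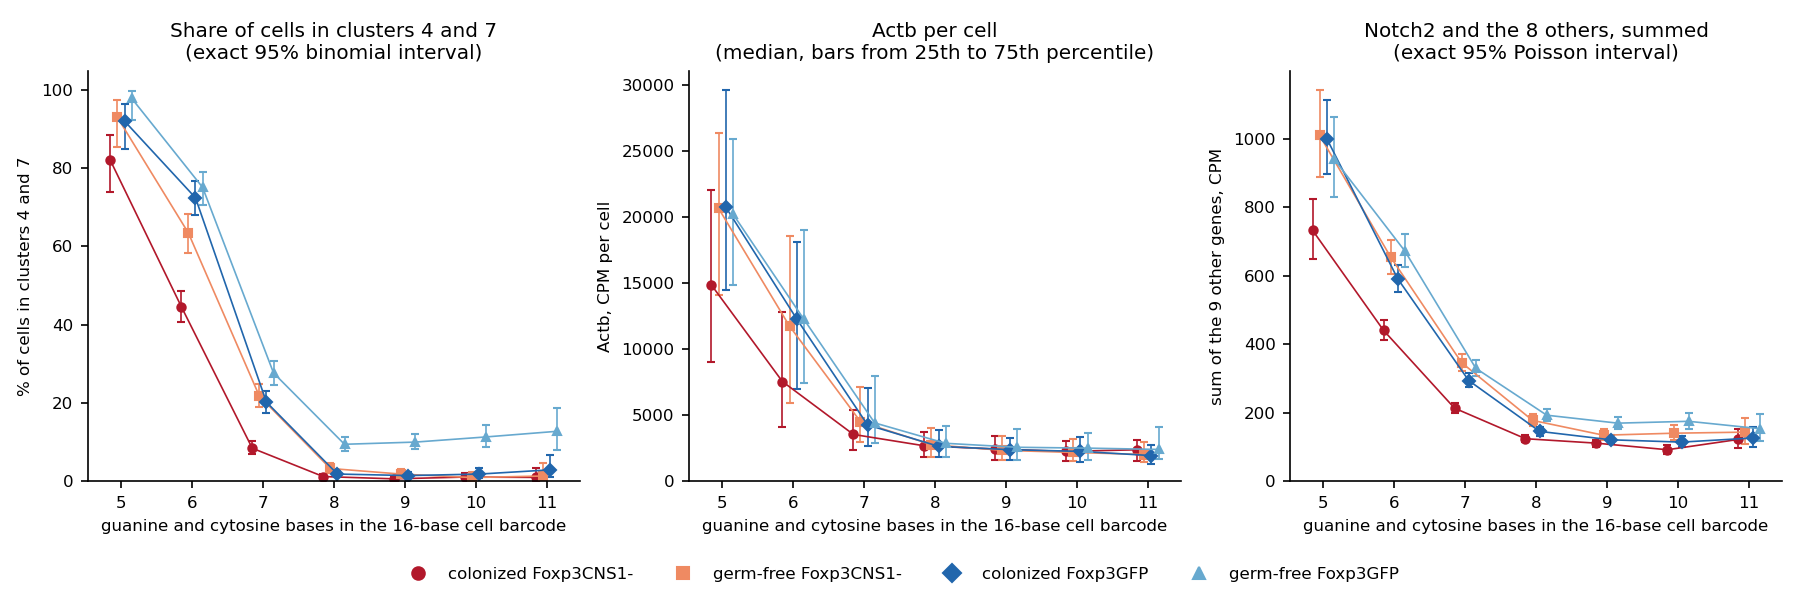
Share of cells in clusters 4 and 7 (left, %), Actb per cell (middle, median CPM with bars from the 25th to the 75th percentile) and the summed CPM of the 9 other genes (right), against the number of guanine and cytosine bases in the barcode, for each library. Every library falls steeply between 5 and 8 bases, and the germ-free Foxp3GFP library alone keeps a share near 10.2% at 8 or more.

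Between barcode classes all 10 genes differed in 1 direction. In cells with 5 or 6 G or C bases against cells with 8 or more, 10 of 10 genes were up past 1.5-fold, beside 2.74% of 10717 genes, with a median ratio of 4.54 (range 3.68 to 7.52). Notch2 was at 32.8, 79.0, 38.8 and 58.3 CPM in the low class of the colonized Foxp3CNS1-, germ-free Foxp3CNS1-, colonized Foxp3GFP and germ-free Foxp3GFP libraries, against 4.57, 6.84, 6.37 and 9.33 CPM in the high class. The classes did not overlap, and the log2 ratio over all libraries was 2.91 (2.66 to 3.16). Actb was at 11147, 14975, 16236 and 15236 CPM in the low class, against 2916, 2866, 2865 and 3575 CPM in the high class. In each library taken by itself 10 of 10 genes were up, beside 3.16%, 4.2%, 3.97% and 4.15% of genes, with median ratios of 4.105, 4.57, 5.603 and 4.49. The barcode class and the cluster are read from the same cells, so these counts and those by cluster are not independent.

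The difference was smaller but had the same direction in cells that clusters 4 and 7 did not take. Outside clusters 4 and 7, 10 of 10 genes were up in the low class, beside 4.36% of 10539 genes, with a median ratio of 2.51 (range 1.80 to 3.75). Kmt2d was at 39.8 CPM in the low class, against 12.3 CPM in the high class, and Actb at 5391 CPM, against 2760 CPM. Among cells with 8 or more G or C, 10 of 10 genes were up in clusters 4 and 7. The comparison was with the other clusters, beside 12.2% of 10469 genes up, and the median ratio was 4.95. Most of those cells in clusters 4 and 7, 264 of 392, were from the germ-free Foxp3GFP library. The genes were chosen on this contrast of clusters, so this count is a description.

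Barcodes that occurred in 2 libraries give pairs of cells from different mice with the same tag. Of the 157 pairs of cells, 21 had a barcode with 5 or 6 G or C; in 12 of them both cells were in clusters 4 or 7, in 8 only 1 was, and in 1 neither was. Of the 109 pairs with 8 or more G or C, none had both cells there and 4 had 1. Over all cells, 67.2% of those with 5 or 6 G or C were in clusters 4 and 7, and 3.5% with 8 or more. Whether the same tag adds to its G or C class was not tested. The barcodes below are shown with their G and C bases in capitals; the first 2 come from pairs with both cells in cluster 7, the next from a pair with both in cluster 4, and the last from a pair with neither.
germ-free Foxp3CNS1- and colonized Foxp3GFP, 5 bases: atCtaCtCatGtaaGa
germ-free Foxp3CNS1- and colonized Foxp3GFP, 6 bases: CaGatCaaGtattGGa
germ-free Foxp3CNS1- and colonized Foxp3GFP, 6 bases: CatattCaGGtCatCt
colonized Foxp3CNS1- and germ-free Foxp3GFP, 9 bases: CaGtCCtaGCGtGaGt
The first barcode had 27886 CPM of Actb in the germ-free Foxp3CNS1- cell and 27505 CPM in the colonized Foxp3GFP cell, from 2044 and 13016 UMIs. The second had 22284 and 22418 CPM, and the third 8874 and 8516 CPM, in the same order of libraries. The last had 2653 CPM in the colonized Foxp3CNS1- cell and 1745 CPM in the germ-free Foxp3GFP cell. These pairs are among the closest: another, with 6 bases, had 21994 CPM in a colonized Foxp3CNS1- cell of cluster 7 and 10940 CPM in a colonized Foxp3GFP cell of cluster 4. Actb is among the genes chosen by these clusters, so likeness of Actb within such pairs is only a description. Of the 16 pairs with 1 cell there, the cell outside was in the colonized Foxp3CNS1- library in 11. The pairs were too few to move the levels. Without the 314 cells that share a barcode, 10 of 10 genes stayed past 1.5-fold in cluster 4 and in cluster 7. That count follows from the choice of the genes.

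**Figure D3:**
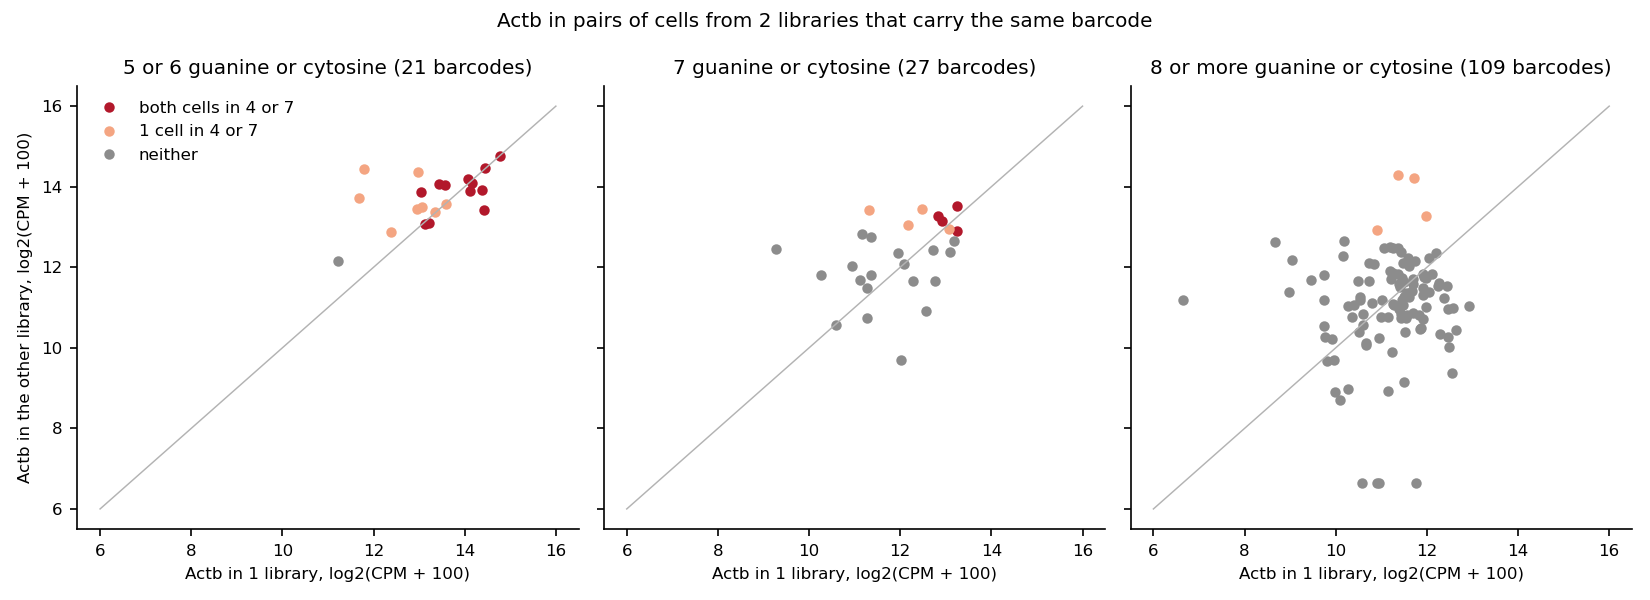
Actb in the 2 cells that carry the same barcode, as log2(CPM + 100), 1 point per barcode, for barcodes with 5 or 6 (21 barcodes, left), 7 (middle) and 8 or more (109 barcodes, right) guanine or cytosine bases. Points with both cells in clusters 4 or 7 are red, and the grey line marks equal values. At 8 or more bases there are none of them.

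Other genes were then divided by their longest thymine run. Of the 10717 genes with a ratio between barcode classes, 10631 were matched by symbol to GENCODE transcripts, and 320 of them, or 3.01%, had a run of 22 or more thymines; that length is the shortest among the 8 genes, so it was set with them in view. Without the 10 chosen genes, 43.3% of 97 genes whose longest run was 27 or more were up past 1.5-fold in the low class. The share was 26.8% of 157 genes for runs of 23 to 26 and 13.5% of 341 for runs of 19 to 22. It lay between 1.097% and 1.59% for each bin of shorter runs. Outside clusters 4 and 7, again without the 10, the shares were 36.5% at 27 or more and 3.73% at 10 or fewer. Runs of adenine gave no such order, though 1 of the 10 chosen genes, Rpgrip1, had an adenine run of 28. Without the 10, 3.88% of 103 genes with an adenine run of 27 or more were up, and 2.55% with runs of 10 or fewer.

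Place in the transcript also divided the genes. Of genes with a thymine run of 22 or more, again without the chosen ones, 42.9% of 182 with the run in the 3′ UTR were up, against 14.7% of 116 whose longest run lay in a transcript without coding sequence. Where the run in the 3′ UTR lay more than 300 and at most 1000 bases before the transcript's end, 36 of 57 genes were up, or 63.2%; the 8 runs of the chosen genes lie in the same window. The count was 26 of 48 from there to 2000 bases, 14 of 51 beyond, and 2 of 26 within 300 bases of the end. Rpgrip1 and Rbm15 were up with thymine runs of 12 in annotated transcripts, and introns and downstream sequence were not searched. Another 8 genes with runs under 22 had higher ratios than Notch2, among them the plasma cell genes Jchain and Mzb1. Their log2 ratios between the barcode classes were 6.33 and 4.64, although both were lower in clusters 4 and 7. Few cells held them: outside clusters 4 and 7, Jchain was seen in 0.55% of cells and Mzb1 in 0.24%.

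**Figure D4:**
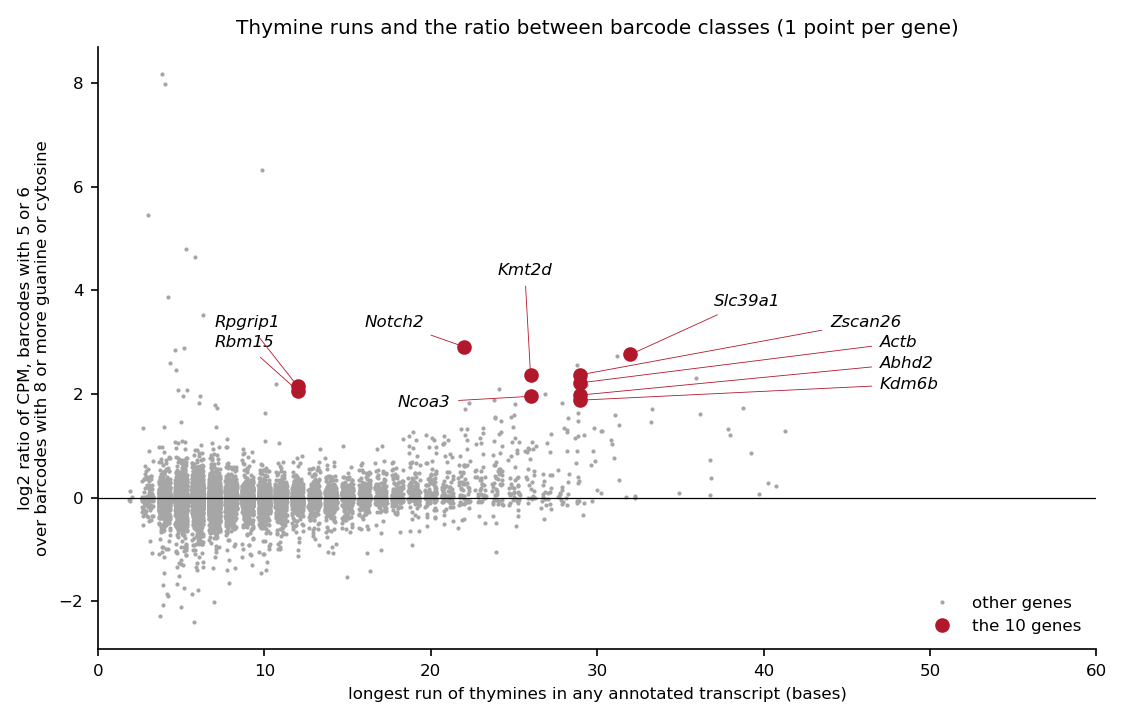
Longest thymine run in any annotated transcript (x axis, bases) and log2 ratio of CPM between barcodes with 5 or 6 and with 8 or more guanine or cytosine bases (y axis), 1 point per gene, with the 10 genes in red. Ratios spread upward from runs of about 19 bases on; Rpgrip1 and Rbm15 lie at 12, and the highest points at short runs include Jchain and Mzb1.

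The genes with the most similar pattern over the 40 sums of cluster by library were found by Pearson's r of log2(CPM + 10) with the mean of the 10 genes, each scaled, among 7002 genes with at least 500 UMIs. Wtap (r = 0.91), a subunit of the RNA methylation complex, led, followed by Cbx3 (0.88), a heterochromatin protein, and Alkbh5 (0.88), an RNA demethylase. Marf1, Yme1l1, Relch, Mcmbp, Itpripl1, Supt16 and Dpysl2 had r between 0.83 and 0.87. All 10 of them had a thymine run of 22 or more, beside 3.01% of the matched genes. That of Relch lay in a transcript without coding sequence. Of the leading genes of cluster 7, Insig1 and Lrrc8a had longest thymine runs of 24 and 36, and Slc24a5 one of 6. The sums of 1 library share its mice and its preparation.

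Few other genes of these pathways were past the fold, with the most on the RNA methylation list. Of 26 Notch pathway genes with at least 50 UMIs, only Notch2 itself was up in clusters 4 and 7, beside 2.91% of 11047 genes up and 4.24% down, and without it none of 25 was up and 2 were down. Notch1, the main Notch receptor of T cells, was at 27.8 CPM in clusters 4 and 7, against 27.5 CPM in the other clusters. Dtx3l and Maml2 had the next highest ratios, 1.32 and 1.31. The 2 that were down, Hey1 at 1.11 against 2.53 CPM and Maml3 at 0.70 against 1.36 CPM, rest on few UMIs. Of 17 histone methylation genes other than Kmt2d and Kdm6b none passed the fold; Ncoa6 had a ratio of 1.40 and Ezh2 of 0.80. Of 10 coactivators other than Ncoa3, Med1 was up, with 48.8 against 28.9 CPM. Of 13 RNA methylation genes other than Rbm15, 3 were up, beside the 2.91% of all genes. Wtap was at 145 against 60.9 CPM, Alkbh5 at 81.7 against 33.6 CPM, and Ythdf2 at 74.9 against 48.6 CPM. Of 19 zinc genes other than Slc39a1 none was up and 1 was down, the metallothionein Mt2, at 0.70 against 1.31 CPM, whose interval reached past 0 on the log2 scale. Of 21 actin genes other than Actb, Myh9 and Actr2 were up, with ratios of 1.53 and 1.52, and Arpc3 was at 393 against 408 CPM. None of 16 nuclear RNA genes and none of 15 handling stress genes passed the fold; Srrm2 had the highest ratio of the first list (1.31) and Hsp90aa1 the lowest of the second (0.80). Without the chosen genes, the median log2 ratio of these 8 lists ran from -0.02 to 0.12, beside -0.03 over all genes.

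Between libraries the 10 genes differed less than between clusters, but they were chosen by the contrast of clusters, so this is a description. Each group is 1 library of 3 pooled mice, no test was made, and a difference between libraries cannot be told apart from one between preparations. Cells in clusters 4 and 7 made up 7.01% and 2.05% of the colonized Foxp3CNS1- library, 10.7% and 4.70% of the germ-free Foxp3CNS1- library, 11.4% and 4.02% of the colonized Foxp3GFP library, and 15.8% and 7.09% of the germ-free Foxp3GFP library. The genes were chosen by their levels in these clusters, so the cluster sizes are given as a description.

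In Foxp3CNS1- mice all 10 genes were lower in the colonized library, and 4 were past the fold, beside 4.69% of 10204 genes past it downward. The 4 were Notch2, Kdm6b, Abhd2 and Ncoa3. Notch2 was at 9.04 CPM in the colonized library (interval 7.70 to 10.5), against 21.5 CPM in the germ-free one (18.6 to 24.7), a ratio of 0.42. Kdm6b was at 25.7 against 39.9 CPM, Abhd2 at 14.8 against 23.7 CPM and Ncoa3 at 39.8 against 61.9 CPM. Actb was at 4348 CPM, against 5188 CPM. The interval of the ratio lay below 1 for 9 of 10 genes, Rbm15 being the exception. The share of cells in clusters 4 and 7 moved with these differences, and outside those clusters 1 gene, Notch2, was past the fold, beside 4.66% of genes, and Actb was at 3232 CPM, against 3097 CPM. Within cluster 4, Notch2 was down (beside 5.05% of genes), and within cluster 7, of 9 genes with at least 50 UMIs, Notch2, Kmt2d and Abhd2 were down (beside 4.81%) and Rbm15 was up by 1.79-fold (beside 10.6%). At barcodes with 5 or 6 G or C, Notch2, Abhd2 and Rpgrip1 were down (beside 4.73%), and at 8 or more Ncoa3 was (beside 4.68%). Notch2 was lower in the colonized library in each division of the cells: its ratio was 0.52 outside clusters 4 and 7, 0.54 in cluster 4, 0.47 in cluster 7, 0.42 at barcodes with 5 or 6 G or C, and 0.67 at 8 or more, where the interval of the log2 ratio, -1.20 to 0.04, reached past 0.

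In Foxp3GFP mice none of the 10 genes was past the fold between the colonized and the germ-free library, beside 4.65% of 9990 genes upward and 3.97% downward. Notch2 came nearest, at 12.9 CPM in the colonized library (11.03 to 14.9), against 18.3 CPM in the germ-free one (15.9 to 21.1), a ratio of 0.70. Kdm6b was at 31.8 against 44.6 CPM, Abhd2 at 20.7 against 28.2 CPM, and Actb at 5300 against 5766 CPM. Slc39a1, at 21.95 against 21.9 CPM, and Rbm15, at 16.4 against 16.1 CPM, were nearly equal. Within divisions of the cells, 2 genes were past the fold downward at barcodes with 5 or 6 G or C (Notch2 and Kdm6b, beside 4.44% of genes), 2 at 8 or more (Abhd2 and Zscan26, beside 3.85%), and 1 in cluster 7 (Kdm6b, beside 6.78%). Without the 264 cells of clusters 4 and 7 with 8 or more G or C in the germ-free library none of the 10 was past the fold over all barcodes, as with them.

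Between genotypes, the germ-free Foxp3CNS1- library differed from the germ-free Foxp3GFP library by less than the fold in all 10 genes, beside 2.92% of 9774 genes past it upward and 1.24% downward; the ratios ran from 0.84 for Abhd2 to 1.17 for Notch2. Within divisions of the cells, Ncoa3 was up in cluster 7 (beside 4.71% of genes) and Zscan26 down at barcodes with 5 or 6 G or C (beside 2.99%). The colonized Foxp3CNS1- library was below the colonized Foxp3GFP library in all 10 genes, and 1 was past the fold, beside 1.27% of 10336 genes downward. That gene was Slc39a1, at 14.4 CPM, against 21.95 CPM, and it was not past the fold without the cells that share a barcode. Kmt2d was at 19.3 against 27.6 CPM, and Rpgrip1 at 33.5 against 43.8 CPM. Outside clusters 4 and 7 none of the 10 was past the fold in this comparison, beside 3.25% of genes past it either way, and the ratios ran from 0.80 to 1.05. Abhd2 was down in cluster 4 (beside 3.35% of genes) and in cluster 7 (beside 4.32%), and Slc39a1, Abhd2 and Rpgrip1 were down at barcodes with 5 or 6 G or C (beside 2.93%). Each library serves in 2 of these 4 comparisons, so their values are not independent.

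**Figure D5:**
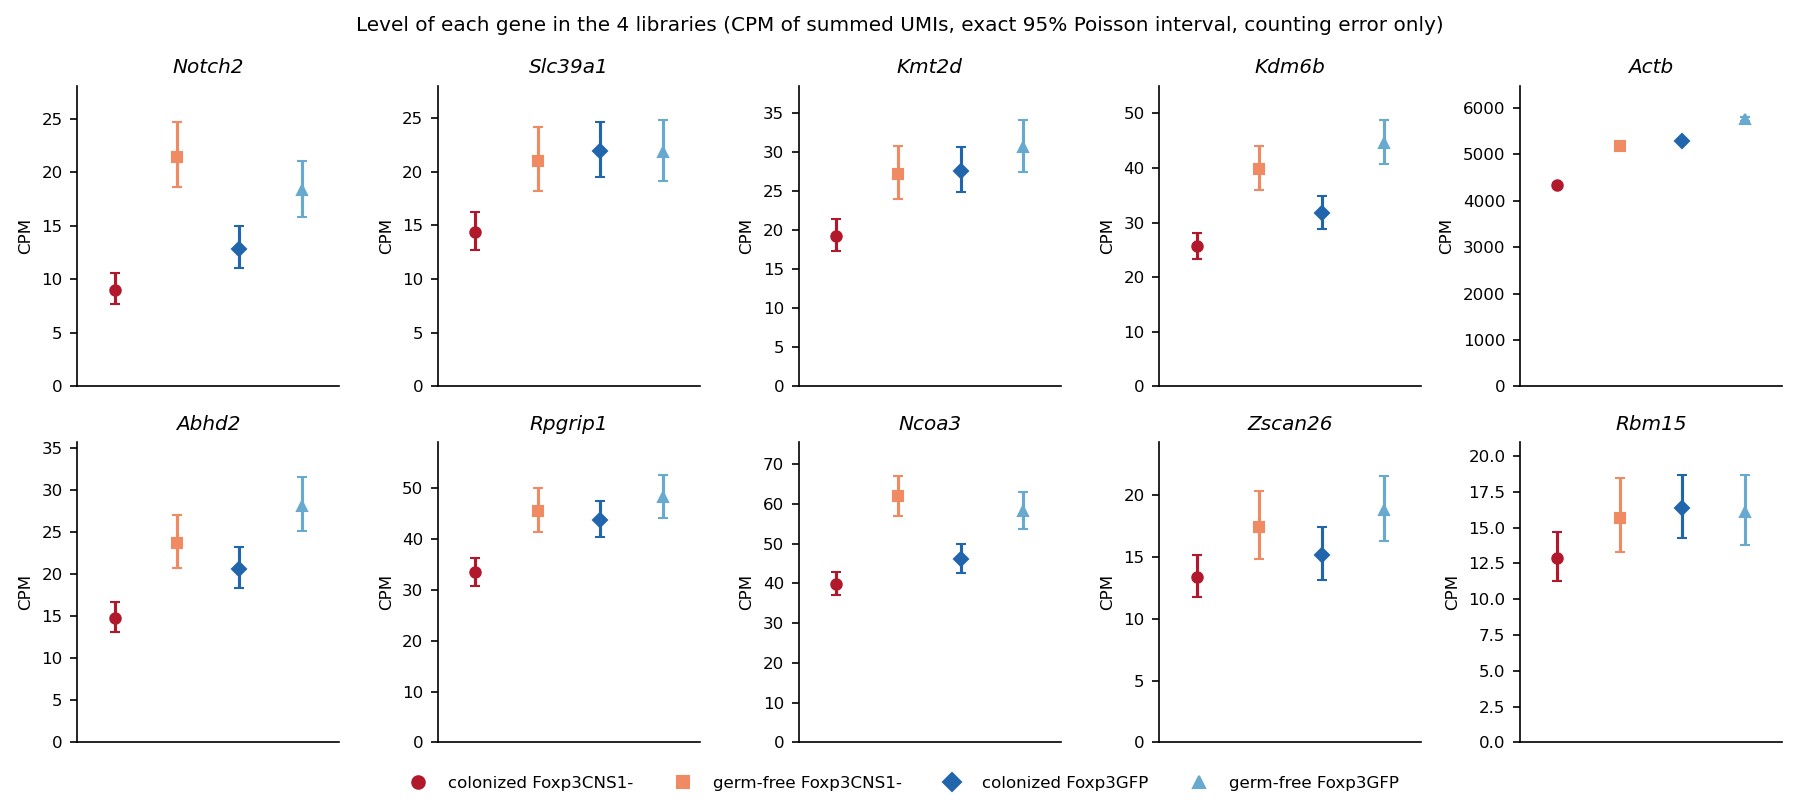
Level of each gene in the 4 libraries, in CPM of summed UMIs (y axis, linear from 0), with exact 95% Poisson intervals for counting error. The colonized Foxp3CNS1- library is the lowest for each of the 10 genes, and Notch2 has the lowest ratio to the germ-free library of the same genotype, at 9.04 CPM against 21.5 CPM in the germ-free Foxp3CNS1- library.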

How the data were processed

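Per the submitters' processing notes the reads were processed with Cell Ranger and Scanpy 1.5.1 on mm10. The deposited values used here are counts: whole UMIs per gene and cell in 1 table for all libraries, with a second table that gives each cell's library, the authors' filter and the phenograph cluster. Of 17478 cells in the count table, 227 had no library and 303 were removed by the authors' filter, which left 16948 cells and 13314 genes. Another 4 columns of the cell table were not used. The labels' protocol names both 3′ version 3 and 5′ version 2 chemistry and gives 3′ version 3 for these libraries; this was not settled from the barcodes. The treatment of doublets was not given in the sources used here; no doublet caller was run.

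Counts were summed over cells and divided by the summed UMIs of the same cells (CPM). Ratios carry exact 95% intervals from the split of UMIs (Clopper-Pearson), levels carry exact Poisson intervals, and shares carry exact binomial ones. With 1 library a group no test was made. For shares of cells, each cell was thinned to 1000 UMIs, which left out 30, 22, 16 and 38 cells of the colonized Foxp3CNS1-, germ-free Foxp3CNS1-, colonized Foxp3GFP and germ-free Foxp3GFP libraries. Longest runs of each base were taken over all GENCODE M21 transcripts of a gene, matched by symbol. The ratio code was tested on simulated data. The 10 genes and the gene lists were chosen with earlier results of these data known; other genes are named by fixed rules (pattern, rank in cluster 4 or 7, and the highest and lowest of each list), except Notch1, Jchain, Mzb1, Lyz2, Gzma and Gm17066. Barcode composition and thymine runs were examined after the levels by cluster had been seen. Scripts ran in Python 3.11.15 with NumPy 2.4.6, SciPy 1.17.1, pandas 2.3.3 and matplotlib 3.10.9.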

Additional observations from a re-analysis of the deposited data

Results flagged for a closer look

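In 2 of the 10 genes the colonized library lay on opposite sides of the germ-free library in the 2 genotypes. Slc39a1 had a log2 ratio of colonized to germ-free of -0.55 in Foxp3CNS1- and 0.0057 in Foxp3GFP. Rbm15 had -0.29 in Foxp3CNS1- and 0.024 in Foxp3GFP. Each group is 1 library, the intervals of both Foxp3GFP values reach past 0 on both sides, and the difference between genotypes was not tested.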

How the results depend on the processing

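No paired analysis was possible because the groups compared share fewer than 2 replicate numbers, and a fit over both genotypes together was not run. In clusters 4 and 7 the count stayed at 10 of 10 genes under all 14 alternatives. These included each library alone and the lower mitochondrial share. The genes were chosen on that contrast, so this count is a description. Between libraries the counts were small, so shifts of 1 gene weigh. Colonized against germ-free Foxp3GFP, 0 as reported, gave 1 with each cell weighing the same, 1 after thinning to 1000 UMIs, and 2 with barcodes of 8 or more G or C. Colonized against germ-free Foxp3CNS1-, 4 as reported, gave 2 with each cell weighing the same, and 1 with a fold of 2, without clusters 4 and 7, with the cluster mix fixed, and with barcodes of 8 or more G or C. Colonized Foxp3CNS1- against colonized Foxp3GFP, 1 as reported, gave 0 with each cell weighing the same, a fold of 2, clusters 4 and 7 left out, the cluster mix fixed, barcodes of 8 or more G or C, and shared barcodes left out. The cause was not tested. Co-detection was 1.44 in cluster 4 and 2.21 over all cells after thinning to 500 UMIs. Of 600 single-gene ratios under the alternatives, 477 lay within the counting interval of the reported value, 123 outside it, and 0 called ratios changed direction. The 3 alternatives on barcodes and on the germ-free Foxp3GFP cells were chosen after seeing the data.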
